A study of Homo sapiens with 6 samples.

Results

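Aminoacyl-tRNA synthetases join each amino acid to its own tRNA, the step that supplies charged tRNA to the ribosome. Human cells keep separate sets of nuclear genes for the cytosol and for mitochondria, and KARS1 and GARS1 are known to serve both compartments. Several cytosolic enzymes sit in a multi-synthetase complex, and the transcription of many synthetase genes is known to respond to ATF4, the effector of the amino acid and integrated stress response. The 36 genes described here were chosen by name among the 34738 genes of the deposited table, and are 19 cytosolic enzymes or subunits, 16 mitochondrial enzymes and XPOT, the nuclear export receptor for tRNA. All 36 were listed once and all 36 had a mean of at least 1 FPKM, so each was tested.

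The cells were of KHM-5M, a human thyroid cancer line, by the labels of all 6 libraries, whereas a legend in the study names another thyroid line for the sequenced cells. The siGDF15 group had GDF15 silenced with an siRNA delivered with a lipid reagent and the control group (NC) did not, with 3 libraries each, described in the methods as biological replicates. The time after transfection is not given in the sources used here. The methods list a negative control siRNA and took RNA from negative control cells, but the sources also name NC a blank control. If NC received no siRNA, an effect of transfection itself cannot be told apart from that of the knockdown. The methods list a single siRNA sequence against GDF15, so an effect of it on other genes cannot be told apart from the loss of GDF15. GDF15 was at 22.4, 19.3 and 23.1 FPKM in NC replicates 1 to 3 and at 10.8, 10.5 and 10.7 FPKM in siGDF15 replicates 1 to 3 (log2 fold change -0.92 with an estimated SE of 0.079, adjusted p = 2.4e-05 from edgeR).

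Total expected counts were between 67569576 and 68025163 in NC and between 51738814 and 67793417 in siGDF15, with the lowest total in siGDF15 replicate 2. Mitochondrially encoded RNA held 6.39 to 6.78% of counts in NC and 8.53 to 9.17% in siGDF15. FPKM is scaled by all mapped fragments, whereas the fold changes below were scaled by TMM, and without TMM the median of all tested genes lay at -0.10 on the log2 scale. Of 10 thyroid follicular markers in the table, 7 were under 1 FPKM in every library, among them TG, SLC5A5 and NKX2-1, while PAX8 was at 59.1 FPKM in NC and 79.4 FPKM in siGDF15. Of 5 immune markers 4 were under 1 FPKM in every library, and the 5 summed to 18.4 FPKM in NC and 17.1 FPKM in siGDF15. Of 6 fibroblast markers 1 was under 1 FPKM in every library, and the 6 summed to 34.3 FPKM in NC and 34.8 FPKM in siGDF15. None of the 5 tested fibroblast markers passed the test. As RNA was measured in bulk, a smaller share of cells expressing a gene and less of its RNA per cell cannot be told apart.

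Some of the promoters hold the letters of a short element that ATF4 binds together with C/EBP proteins. The windows with these letters are shown because all of their genes fell, a choice made after the values were seen. A role of ATF4 was not tested. RefSeq windows of GRCh38.p14, from 250 bases before to 50 bases after a gene's start, were found for 31 of the 36 genes, in 40 windows. The letters TGATGNAA, searched on both strands, were found in 8 of these genes (8 of the 40 windows), and in 3.62% of all 35116 windows of the table. They are in capitals in the windows below, which read 5′ to 3′ on the strand of the gene, and the element lies on the opposite strand in all but NARS1 and YARS2.
TARS1: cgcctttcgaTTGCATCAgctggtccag
MARS1: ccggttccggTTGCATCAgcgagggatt
AARS1: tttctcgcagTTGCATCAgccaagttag
IARS1: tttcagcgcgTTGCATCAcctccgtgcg
NARS1: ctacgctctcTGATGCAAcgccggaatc
CARS1: ggggcggcggTTGCATCAgattctagga
GARS1: tacgcggcgaTTTCATCAtgctccgagc
YARS2: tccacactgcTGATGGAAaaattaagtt
These windows lie at chr5:33440957-33440984, chr12:57488054-57488081, chr16:70289676-70289703, chr9:92293693-92293720, chr18:57621805-57621832, chr11:3057408-3057435, chr7:30594835-30594862 and chr12:32756077-32756104 in the order shown. With the first base at the RefSeq start counted as 0, the element began between position -33 and position 14 in 6 of the genes. It began at -187 in AARS1 and -197 in YARS2. The deposited coordinates give other starts for some genes. There AARS1 starts at 70289707 on the minus strand, so its window lies within the gene. All other windows shown except that of YARS2 also lie within the gene by those coordinates. MARS1 and GARS1 start there at 57475445 and 30580533 on the plus strand, far upstream of their windows. In 5 genes (AARS1, CARS1, IARS1, MARS1 and TARS1) the capitals had the same 8 letters, and NARS1 holds the same element read from the other strand. No match elsewhere says only that the letters are not in that window.

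The cytosolic enzymes were lower after GDF15 silencing, with a few exceptions, and XPOT fell the most of the 36 genes. The mitochondrial enzymes moved in both directions and by less. At an adjusted p under 0.05, 14 of the 19 cytosolic genes fell, 2 rose and 3 did not pass the test, where 61.4% of all 11867 tested genes passed in either direction, 31.4% as lower and 30.0% as higher. Of the 16 mitochondrial genes, 5 fell, 4 rose and 7 did not pass it. Together with XPOT, 20 of the 36 genes fell and 6 rose.

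The share that passed was 84.2% for the cytosolic genes, 56.2% for the mitochondrial genes and 72.2% for all 36, so the mitochondrial share lay near that of all tested genes. Without TMM 21 of the 36 genes were lower and 5 higher, and 36.6% of all called genes were then higher rather than 48.9%. The median log2 fold change was -0.44 for the cytosolic genes and -0.04 for the mitochondrial genes, beside 0.00 for all tested genes. Over the alternative settings the cytosolic median stayed between -0.54 and -0.38, and the mitochondrial median ranged from -0.14 to 0.06 and so changed sign, as it did without NC replicate 3 or siGDF15 replicate 3 (0.06 in each). With an absolute log2 fold change of at least 1 also required, 4 genes were downregulated (XPOT, WARS1, MARS1 and TARS1) and none was upregulated. Of all tested genes 7.81% met both thresholds, 4.78% as downregulated and 3.03% as upregulated.

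**Figure D1:**
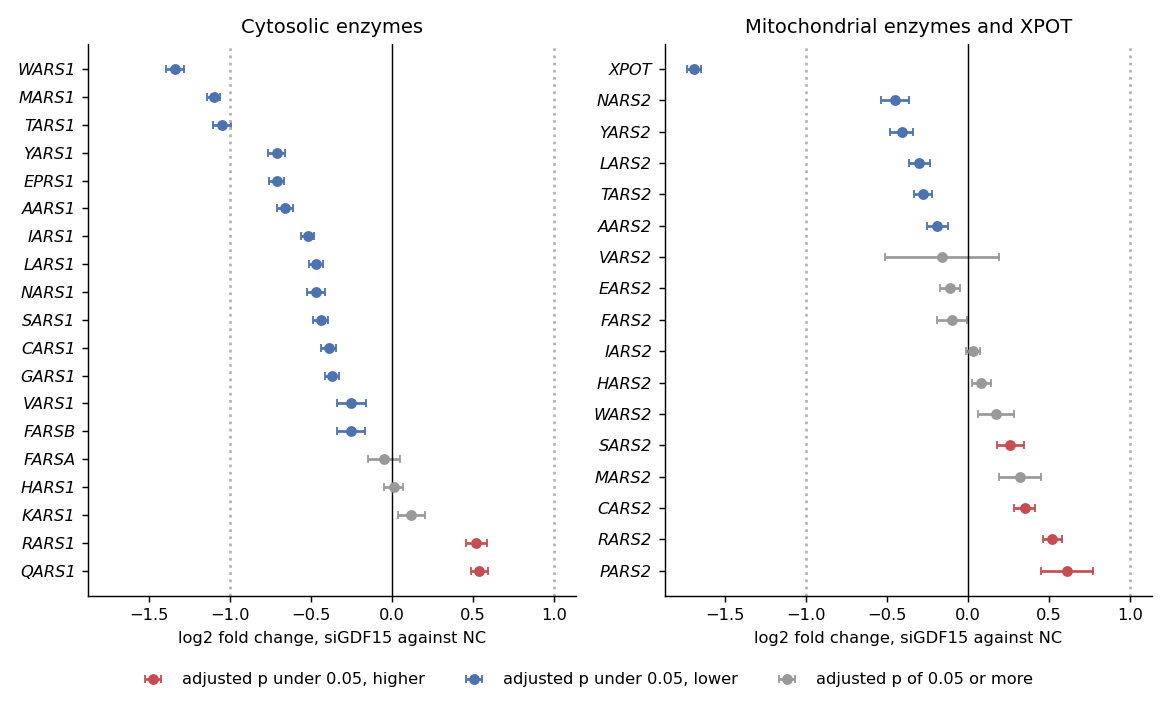
Log2 fold change of siGDF15 against NC for the 19 cytosolic genes (left) and the 16 mitochondrial genes with XPOT (right). Points are edgeR estimates from 3 libraries per group, bars are standard errors, colours give the test and dotted lines mark a log2 fold change of 1 in either direction. XPOT, WARS1, MARS1 and TARS1 lie beyond the left dotted line, and QARS1 and RARS1 stand apart from the other cytosolic genes on the right of 0.

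XPOT, which carries mature tRNA from the nucleus to the cytosol, was among the more abundant of the 36 genes in NC and stood near the middle of their order in siGDF15. Its level was 40.4, 40.0 and 40.6 FPKM in NC replicates 1 to 3 and 12.1, 11.3 and 11.4 FPKM in siGDF15 replicates 1 to 3. The means were 40.3 ± 0.286 and 11.6 ± 0.464 FPKM (SD, n = 3), and no library of one group came near those of the other. The log2 fold change of XPOT (ENSG00000184575, GRCh38 chromosome 12 from 64404392 to 64451125) was -1.69 (SE 0.045, adjusted p = 2.8e-07 from edgeR), so siGDF15 held 0.310 of the NC level on the TMM scale. It moved from rank 8 to rank 16 of the 36 genes by mean FPKM.

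Among the enzymes, the largest fall was in WARS1, which charges tryptophan and is also known as an interferon-inducible gene. WARS1 was at 27.1, 29.8 and 28.1 FPKM in NC and at 11.0, 10.4 and 9.91 FPKM in siGDF15, so the groups were far apart. The log2 fold change of WARS1 (ENSG00000140105, chromosome 14 from 100333790 to 100376343) was -1.34 (SE 0.055, adjusted p = 7.3e-07 from edgeR). A match to the spaced GAAA repeat bound by interferon regulatory factors, searched on both strands, was found in WARS1 and EARS2 among the 31 genes and in 3.57% of all windows. In WARS1 it lies in a window at chr14:100375384-100375411, shown with the match in capitals because it is the only one of the 3 motifs searched that the most reduced enzyme gene carries.
WARS1: ttcagaaggGAAACTGAAAgaaagaggg
Of 11 tested genes of the interferon gamma response 5 rose and 1 fell, with a median log2 fold change of 0.32. The share called was 54.5%, below the 61.4% of all tested genes. IFI30, a lysosomal thiol reductase, had a log2 fold change of 2.49, NLRC5 of 0.66 and TAP2 of -0.70.

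MARS1, the methionine enzyme of the multi-synthetase complex, was at 48.4, 47.6 and 47.8 FPKM in NC and at 20.9, 19.9 and 21.6 FPKM in siGDF15. The NC libraries differed by less than 1 FPKM and the siGDF15 libraries all lay far below them. Its log2 fold change (ENSG00000166986, chromosome 12 from 57475445 to 57517569) was -1.10 (SE 0.043, adjusted p = 6.7e-07 from edgeR). MARS1 overlaps DDIT3 on the opposite strand, and DDIT3 went the other way, from 5.01 ± 0.309 to 6.50 ± 0.301 FPKM (SD, n = 3), and the log2 fold change was 0.48 (adjusted p = 0.0045 from edgeR). The libraries were made with a kit that marks strand, and whether strand was used in counting is not given in the sources used here.

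TARS1, the threonine enzyme, was at 84.3, 82.9 and 87.0 FPKM in NC and at 41.2, 36 and 37.3 FPKM in siGDF15. It was among the most abundant of the enzymes in NC and fell to rank 7 in siGDF15. The log2 fold change (ENSG00000113407, chromosome 5 from 33440696 to 33468091) was -1.05 (SE 0.056, adjusted p = 2.0e-06 from edgeR), and -0.99 once the medians of the libraries were made equal, which is short of the threshold of 1. TARS3, a cytosolic paralog of TARS1 outside the 36 genes, rose from 0.933 ± 0.202 to 1.85 ± 0.154 FPKM (SD, n = 3), and the log2 fold change was 1.08 (adjusted p = 7.2e-04 from edgeR). TARS3 remained far below TARS1 in level per length, and how reads shared by paralogs were assigned is not given in the sources used here.

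**Figure D2:**
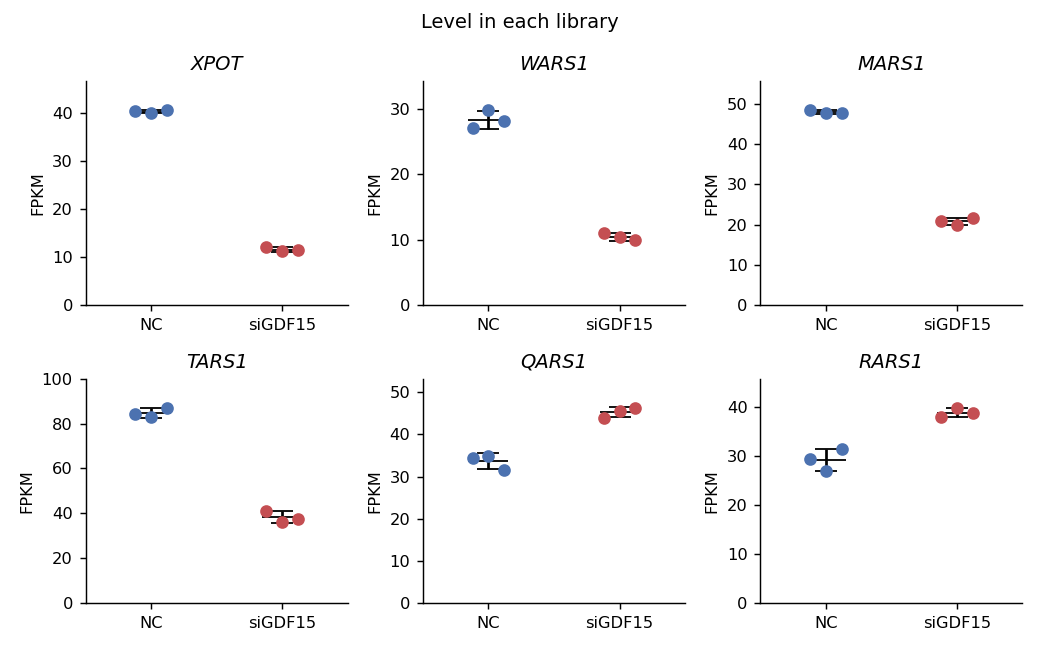
FPKM in each of the 3 NC and 3 siGDF15 libraries for XPOT, WARS1, MARS1, TARS1, QARS1 and RARS1, with the mean (long bar) and SD (capped bar) of each group and axes from 0. In the first 4 genes every siGDF15 library lies below every NC library, and in QARS1 and RARS1 every siGDF15 library lies above.

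EPRS1, YARS1 and AARS1 had the next largest falls. EPRS1, which charges both glutamate and proline, was at 86.9, 83.0 and 88.4 FPKM in NC and at 50.5, 47.4 and 48.8 FPKM in siGDF15 (log2 fold change -0.71, SE 0.046, adjusted p = 5.3e-06 from edgeR). YARS1, the tyrosine enzyme, was at 29.5, 28.1 and 30.7 FPKM in NC and at 16.5, 17.0 and 16.6 FPKM in siGDF15 (log2 fold change -0.71, SE 0.051). AARS1, the alanine enzyme, was at 31.2, 32.2 and 30.8 FPKM in NC and at 17.6, 18.4 and 19.2 FPKM in siGDF15 (log2 fold change -0.66, SE 0.048). In each of them the lowest NC library lay far above the highest siGDF15 library. AARS1 overlaps DDX19B and YARS1 overlaps S100PBP on the opposite strand, with log2 fold changes of 0.44 and -0.51 for those neighbours. IARS1, the isoleucine enzyme, was at 33, 32.4 and 33.8 FPKM in NC and at 21.8, 21.0 and 21.4 FPKM in siGDF15 (log2 fold change -0.52, SE 0.041, adjusted p = 1.4e-05 from edgeR). Smaller falls were found for LARS1 (leucine) with a log2 fold change of -0.47, NARS1 (asparagine) with -0.47, SARS1 (serine) with -0.44, CARS1 (cysteine) with -0.39 and GARS1 (glycine) with -0.37. VARS1 (valine) and FARSB, the beta subunit of the phenylalanine enzyme, had log2 fold changes of -0.25, with adjusted p-values of 0.035 and 0.034 from edgeR. Both calls were lost when any single library other than NC replicate 2 was left out, with adjusted p-values of up to 0.099 for VARS1 and 0.11 for FARSB in edgeR.

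QARS1 and RARS1 rose against this trend, and both are enzymes of the multi-synthetase complex. QARS1, the glutamine enzyme, was at 34.5, 34.9 and 31.5 FPKM in NC and at 44.0, 45.6 and 46.3 FPKM in siGDF15. RARS1, the arginine enzyme, was at 29.4, 26.9 and 31.5 FPKM in NC and at 38.0, 39.9 and 38.9 FPKM in siGDF15. Every siGDF15 library lay above every NC library in both genes. The log2 fold changes were 0.54 for QARS1 (ENSG00000172053, chromosome 3 from 49095932 to 49105123, SE 0.052, adjusted p = 4.5e-05 from edgeR) and 0.52 for RARS1 (ENSG00000113643, chromosome 5 from 168486451 to 168519301, SE 0.066, adjusted p = 2.2e-04 from edgeR). By level they moved from rank 11 to 4 and from rank 15 to 5 of the 36 genes. Of the 7 listed enzymes of the complex, EPRS1, IARS1, LARS1 and MARS1 fell, QARS1 and RARS1 rose, and KARS1, the lysine enzyme, had a log2 fold change of 0.12 (SE 0.085, adjusted p = 0.26 from edgeR).

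KARS1, HARS1 and FARSA were the cytosolic genes that did not pass the test. HARS1, the histidine enzyme, was at 5.20, 5.02 and 5.60 FPKM in NC and at 4.88, 4.81 and 5.12 FPKM in siGDF15 (log2 fold change 0.01, SE 0.058, adjusted p = 0.90 from edgeR). FARSA, the alpha subunit that pairs with FARSB, was at 42.4, 36.5 and 47.8 FPKM in NC and at 36.5, 39.8 and 37.8 FPKM in siGDF15 (log2 fold change -0.05, SE 0.097, adjusted p = 0.70 from edgeR). The libraries of the groups overlapped in both genes, and both estimates changed sign with the setting. KARS1 passed the test in 1 setting, without NC replicate 3, with a log2 fold change of 0.22 and an adjusted p of 0.0077 from edgeR.

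The mitochondrial enzymes were expressed at lower levels, and the largest changes were in rare transcripts. PARS2, the proline enzyme, was at 1.39, 1.71 and 1.28 FPKM in NC and at 2.21, 2.10 and 1.92 FPKM in siGDF15, a log2 fold change of 0.61 (SE 0.16, adjusted p = 0.0090 from edgeR). RARS2, the arginine enzyme, was at 1.56, 1.48 and 1.57 FPKM in NC and at 2.09, 1.98 and 2.11 FPKM in siGDF15, a log2 fold change of 0.52 (SE 0.058, adjusted p = 9.5e-05 from edgeR). CARS2, the cysteine enzyme, was at 9.29, 8.55 and 9.93 FPKM in NC and at 10.7, 11.0 and 11.2 FPKM in siGDF15, a log2 fold change of 0.35 (SE 0.064, adjusted p = 0.0016 from edgeR). In these 3 genes all siGDF15 libraries were above all NC libraries. SARS2, the serine enzyme, also rose, with a log2 fold change of 0.26 and an adjusted p of 0.022 from edgeR, a call lost in 8 of 16 alternative settings, among them those without TMM (adjusted p = 0.11) and without NC replicate 1, siGDF15 replicate 1 or siGDF15 replicate 2 (0.055 to 0.067). MARS2, the methionine enzyme, was at 4.24, 3.52 and 4.91 FPKM in NC and at 4.63, 4.80 and 5.25 FPKM in siGDF15, so the groups overlapped (log2 fold change 0.32, SE 0.13, adjusted p = 0.057 from edgeR). Without NC replicate 3 it was 0.44 with an adjusted p of 0.0064.

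NARS2 and YARS2 had the largest falls of the mitochondrial set. NARS2, the asparagine enzyme and the least abundant of the 36 genes, was at 1.27, 1.17 and 1.26 FPKM in NC and at 0.885, 0.877 and 0.756 FPKM in siGDF15 (log2 fold change -0.45, SE 0.087, adjusted p = 0.0022 from edgeR). YARS2, the tyrosine enzyme, was at 10.8, 10.0 and 11.3 FPKM in NC and at 7.87, 7.34 and 7.27 FPKM in siGDF15 (log2 fold change -0.41, SE 0.073, adjusted p = 0.0014 from edgeR). The groups were separate in both genes. LARS2 (leucine) had a log2 fold change of -0.30, TARS2 (threonine) of -0.28 and AARS2 (alanine) of -0.19, and the call of AARS2 was lost in 4 of 16 alternative settings, 3 of them without NC replicate 1, siGDF15 replicate 1 or siGDF15 replicate 2 (adjusted p of 0.099 to 0.11 in edgeR).

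IARS2, by far the most abundant mitochondrial enzyme, was at 54.7, 53.9 and 52.2 FPKM in NC and at 52.1, 49.8 and 50.3 FPKM in siGDF15. The FPKM values of the groups just failed to overlap, while on the TMM scale the log2 fold change was 0.03 (SE 0.041, adjusted p = 0.62 from edgeR), and it was -0.08 without TMM. EARS2 (glutamate), FARS2 (phenylalanine), HARS2 (histidine) and WARS2 (tryptophan) had log2 fold changes between -0.11 and 0.17 and did not pass the test. VARS2, the valine enzyme, could not be placed, since it ranged from 2.12 to 5.01 FPKM within NC and from 1.67 to 3.66 FPKM within siGDF15 (log2 fold change -0.16, SE 0.35). VARS2 overlaps a gene listed as ENSG00000288473 on the same strand, which was at 9.11 FPKM in NC and 3.49 FPKM in siGDF15 (log2 fold change -1.28, adjusted p = 0.037 from edgeR), and how reads were split between them was not tested. HARS1 and HARS2 lie on opposite strands and overlap each other in the deposited coordinates.

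Over the FPKM values, the 2 groups did not overlap for 29 of the 36 genes, lower in siGDF15 for 23 and higher for 6, where 68.4% of all tested genes did not overlap, 42.8% as lower and 25.6% as higher. For each of these genes the two-sided p of an exact permutation test was 0.1, below which a design of this size cannot go. Summed over the 19 cytosolic genes, the level was 697 to 751 FPKM in the NC libraries and 503 to 509 FPKM in the siGDF15 libraries. Summed over the 16 mitochondrial genes, it was 128 to 134 FPKM in NC and 121 to 125 FPKM in siGDF15.

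**Figure D3:**
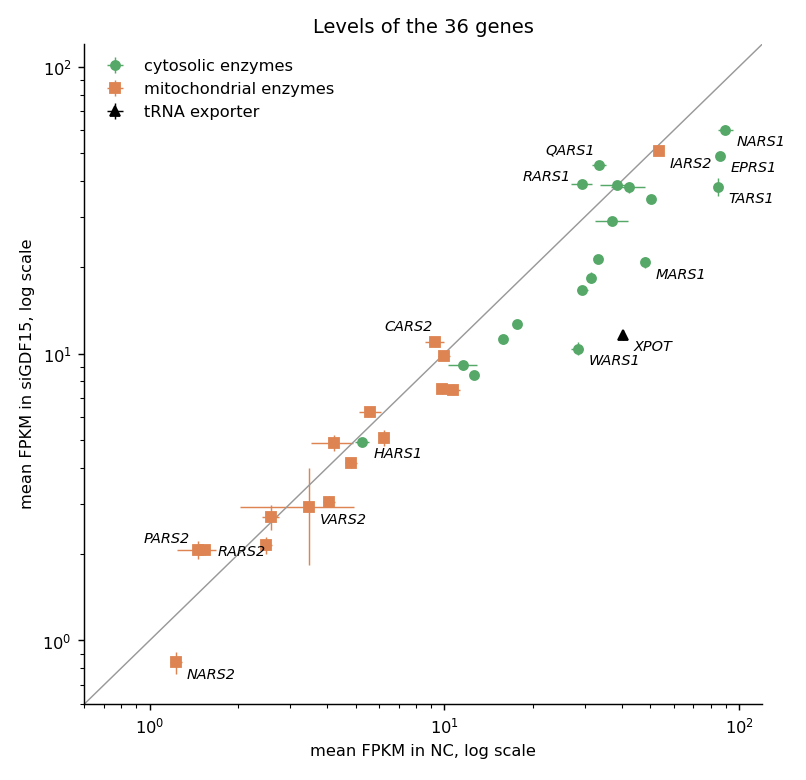
Mean FPKM in siGDF15 (vertical) against NC (horizontal), both on log scales, for the 36 genes, with SD bars over 3 libraries and a line of equal level. Most cytosolic genes (circles) above 10 FPKM lie under the line, QARS1 and RARS1 lie above it, and the mitochondrial genes (squares) scatter along it. XPOT (triangle) lies farthest under the line.

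The order of the levels differed between the groups. In NC the top of the order was NARS1 at 89.9 ± 5.11 FPKM, EPRS1 at 86.1 ± 2.81 FPKM and TARS1 at 84.8 ± 2.09 FPKM (SD, n = 3), whose libraries overlapped, followed by IARS2 at 53.6 ± 1.25 FPKM. In siGDF15 NARS1 was still first at 60.3 ± 2.15 FPKM, and IARS2 at 50.7 ± 1.19 FPKM and EPRS1 at 48.9 ± 1.51 FPKM came next with overlapping libraries. QARS1 at 45.3 ± 1.18 FPKM came after them. HARS1 was the least abundant cytosolic gene in both groups, at 5.27 ± 0.298 FPKM in NC and 4.93 ± 0.166 FPKM in siGDF15.

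For 13 amino acids the 36 genes hold 1 cytosolic and 1 mitochondrial enzyme, and the ratio of their levels per length gives a comparison within each library. In NC the cytosolic gene was the more abundant in 11 of 13 pairs, up to 72.9-fold for NARS1 over NARS2. It was below its partner for HARS1, at 0.527 of HARS2, and for IARS1, at 0.617 of IARS2. In siGDF15 the ratio was lower in every library than in any NC library for 9 of 13 pairs, and higher for none. Of all single genes tested 68.4% did not overlap between the groups, and the share for ratios of other gene pairs was not computed, so nothing particular to these pairs is read from the count.

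The shift was largest for the tryptophan and methionine pairs. The log2 ratio of WARS1 to WARS2 was 3.35, 3.64 and 3.39 in NC and 2.20, 1.89 and 1.77 in siGDF15, a difference of -1.5. For MARS1 to MARS2 it was 3.51, 3.76 and 3.28 in NC and 2.17, 2.05 and 2.04 in siGDF15, a difference of -1.43. In both pairs the cytosolic gene fell while the mitochondrial partner did not pass the test. The differences were -0.76 for threonine, -0.75 for cysteine, -0.71 for serine, -0.55 for isoleucine, -0.47 for alanine, -0.30 for tyrosine and -0.17 for leucine. For cysteine the log2 ratio went from 0.77 ± 0.11 to 0.02 ± 0.015 (SD, n = 3), that is, from more CARS1 than CARS2 to near equality. In 4 pairs the libraries overlapped. The arginine pair had a log2 ratio of 4.25 ± 0.072 in NC and 4.24 ± 0.082 in siGDF15, as RARS1 and RARS2 each rose with a log2 fold change of 0.52, and the asparagine pair differed by -0.02, as NARS1 and NARS2 both fell. The histidine and valine pairs differed by -0.07 and -0.10. Each of the 9 separate pairs had a two-sided p of 0.1 in an exact permutation test, the smallest that 3 libraries against 3 allow.

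**Figure D4:**
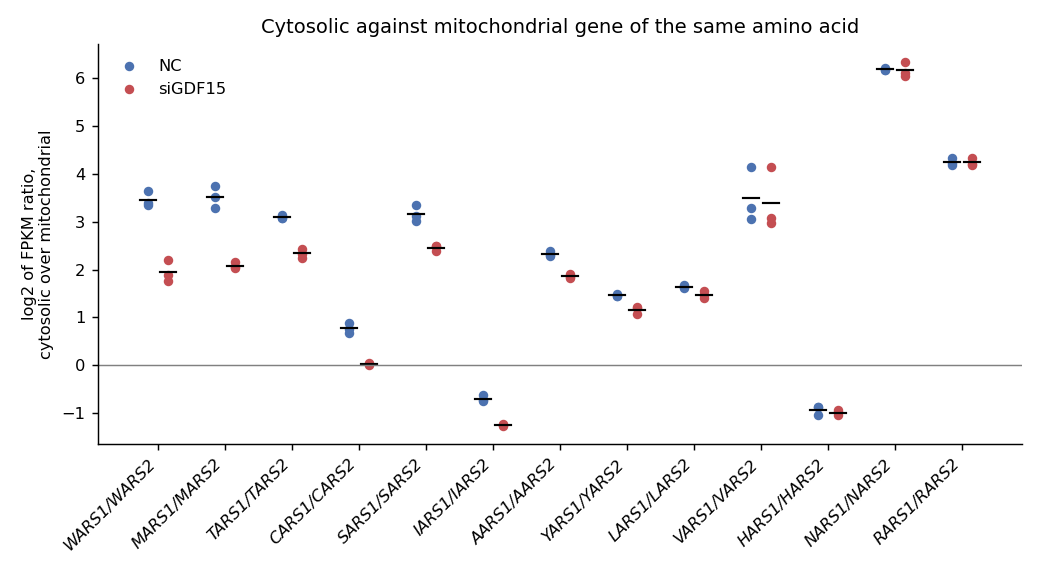
Log2 ratio of the FPKM of the cytosolic gene to that of the mitochondrial gene for 13 amino acids, one point per library and a bar at each group's mean, ordered by the difference between siGDF15 and NC. The tryptophan and methionine pairs drop by -1.5 and -1.43, while the histidine, asparagine and arginine pairs lie at the same height in both groups.

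Synthetases fall into a pair of structural classes, which the choice of genes did not use, and the counts of the classes lay close together. Of 18 class I enzymes 9 fell and 4 rose, with a median log2 fold change of -0.20. Of 16 class II enzymes 9 fell and 2 rose, with a median of -0.22. EPRS1, which charges both glutamate and proline, was in neither list and had a log2 fold change of -0.71. The shares called were 72.2% and 68.8%, beside 61.4% of all tested genes.

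With regard to the ATF4 element shown above, all 7 cytosolic genes that carry it fell. The element was set out for that reason, so this count is no test of it. The log2 fold changes of these 7 genes ran from -1.10 to -0.37, with a median of -0.52. Of all 19 cytosolic genes 14 fell, and of all tested genes 31.4% fell. Of the 9 cytosolic genes with a window but without the letters, 4 fell, 2 rose and 3 did not pass the test, with a median of -0.05. The 3 cytosolic genes without a window (LARS1, VARS1 and YARS1) also fell, with a median of -0.47. WARS1 and EPRS1 are among the 9 genes without the letters, so a fall was not limited to genes with the element in this window. YARS2, the only mitochondrial gene with it, also fell. These are counts over few genes and no test was made. The share that fell among all genes with the letters was not computed. CACGTG, the E-box letters, were found in CARS2, EARS2, IARS1 and MARS2 and in 7.26% of all windows. Of these genes CARS2 rose, IARS1 fell, and EARS2 and MARS2 did not pass the test.

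ATF4 itself was at 192, 185 and 200 FPKM in NC and at 141, 140 and 140 FPKM in siGDF15, with separate groups (log2 fold change -0.35, SE 0.046, adjusted p = 2.6e-04 from edgeR). In a list of ATF4 and genes it is known to activate, which holds none of the 36 synthetase and export genes, 24 of 36 tested genes fell and 4 rose, a called share of 77.8% beside 61.4% of all tested genes, of which 31.4% fell. At both thresholds 12 genes of the list were downregulated, beside 4.78% of all tested genes. The median log2 fold change of the list was -0.46, and that of the cytosolic synthetases was -0.44. Whether the fall of ATF4 bears on either list was not tested. The largest falls were in ASNS, which makes asparagine, with a log2 fold change of -2.70, in PSAT1, of serine synthesis, with -2.42, and in the amino acid transporter SLC1A4, with -2.16. PSAT1 went from 272 ± 2.65 to 47.2 ± 1.54 FPKM (SD, n = 3). The list did not move as 1 block, as DDIT3, HERPUD1, CEBPB and ALDH18A1 rose.

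Genes that work beside the synthetases (scaffold proteins, amidotransferase subunits, elongation factors, enzymes of selenocysteine and formylmethionine tRNA, and editing factors) moved in both directions. Of 17 tested, 4 fell and 5 rose, with a median log2 fold change of 0.02, and the share called (52.9%) was below the 61.4% of all tested genes. The scaffold AIMP1 had a log2 fold change of 0.02 and AIMP2 of -0.16, and neither passed the test, while EEF1E1, also a scaffold of the complex, fell with -0.43. EEF1A1, the factor that delivers charged tRNA to the ribosome, rose from 803 ± 5.22 to 1171 ± 19.5 FPKM (SD, n = 3), and the log2 fold change was 0.65 (adjusted p = 1.5e-06 from edgeR), and SEPHS1, of selenium metabolism, had a log2 fold change of -0.58. The subunits that form glutaminyl-tRNA in mitochondria, QRSL1, GATB and GATC, had log2 fold changes of -0.21, -0.16 and -0.02 and did not pass the test.

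Genes of tRNA maturation and modification were called about as often as other genes, and none met both thresholds. Of 58 tested genes 23 fell and 10 rose, where 31.4% of all tested genes fell and 30.0% rose. The share called was 56.9%, beside 61.4% of all tested genes, and the median log2 fold change was -0.16. The largest were TSEN15, a subunit of the tRNA splicing endonuclease, with -0.90, the pseudouridine synthase TRUB1 with -0.87 and WDR4, of the tRNA 7-methylguanosine complex, with -0.85.

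**Figure D5:**
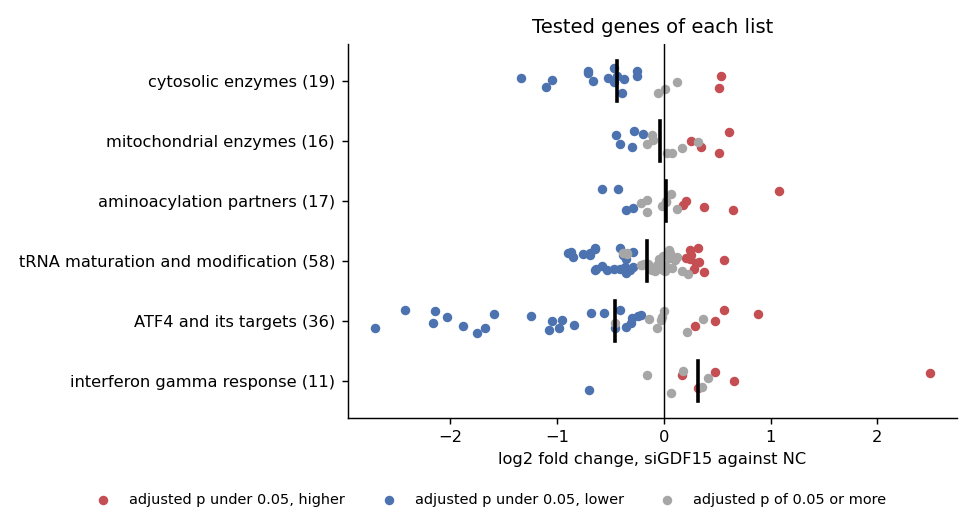
Log2 fold change of siGDF15 against NC for each tested gene of 6 lists, with the number tested in parentheses, the median as a black bar and colours for the test. The cytosolic synthetases and the ATF4 list have medians of -0.44 and -0.46, the mitochondrial enzymes and the partner genes lie around 0, and the interferon gamma list has a median of 0.32.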

How the data were processed

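Poly(A) RNA of 6 libraries was sequenced in read pairs on an Illumina NovaSeq. The submitters' processing notes name fastp, HISAT2, StringTie, edgeR and GRCh38, without versions. The authors deposited FPKM values, scaled by gene length and mapped fragments, and expected counts per gene, whole numbers without normalization whose derivation is not given in the sources used here. The value 4 was the most frequent count from 1 to 20 (15.6%), so counts were not taken as single reads and precision rests on the spread between libraries.

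Expected counts were tested with edgeR 4.0.16 (quasi-likelihood, TMM, two-sided) in R 4.3.3 over the 11867 genes whose FPKM averaged 1 or more, with Benjamini-Hochberg adjustment over all of them. The test was checked on simulated counts. It recovered 74.6% of simulated log2 fold changes of 0.5 in size and 90.8% of those of 1. The simulated counts were negative binomial, without the frequent value 4 of the deposited counts. The SE of a log2 fold change was taken as its size over the square root of F. Alternatives used limma 3.58.1 and DESeq2 1.42.0. Promoter letters were searched with Python 3.11.15 in RefSeq windows, and gene coordinates are those of the deposited table.

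The 36 genes, the lists and the tests were chosen with earlier results of these data known. Values in every library are given for genes past both thresholds, the 8 cytosolic and 6 mitochondrial enzymes with the largest changes, the 3 genes nearest to 0, XPOT and GDF15. From each further list ATF4 and the 3 called genes with the largest changes are named. RARS1 and other list genes were added after their values were seen. Some genes looked at are not reported here.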

Additional observations from a re-analysis of the deposited data

How the results depend on the processing

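Of the 36 genes, 24 kept their direction and their side of an adjusted p of 0.05 under all 16 alternatives. XPOT, WARS1, MARS1, TARS1, QARS1 and RARS1 were among them. The size threshold was not part of this count, and TARS1 fell short of it (-0.99) with the library medians made equal. The number of genes higher was 6, with 5 to 7 under the alternatives and 5 to 8 with single libraries left out, and the number lower was 20, with 17 to 21 and 17 to 20. The median log2 fold change of the cytosolic genes (-0.44) was -0.54 with total counts, -0.38 with the library medians made equal, -0.53 and -0.54 in limma on log2(FPKM + 1) and log2(FPKM + 0.1), -0.49 without the filter, and -0.45 to -0.41 with single libraries left out. That of the mitochondrial genes (-0.04) was -0.14, 0.02, -0.11, -0.14 and -0.09 in the same order, and -0.05 to 0.06 with single libraries left out. All tested genes had a median of -0.10, 0.06, -0.08, -0.10 and 0.07 in these settings, so list values are best read against it.

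The sign changed in 5 genes near 0. With total counts HARS1 was at -0.09, HARS2 at -0.03 and IARS2 at -0.08. In limma they were at -0.08, -0.03 and -0.08 with 1 added and at -0.09, -0.03 and -0.08 with 0.1 added. HARS1 and IARS2 were at -0.02 and -0.01 with a mean FPKM of at least 0.1, and at -0.04 and -0.03 without a filter. FARSA was at 0.01 with the same median. With single libraries left out, FARSA ranged from -0.15 to 0.06, HARS1 from -0.03 to 0.06 and VARS2 from -0.41 to 0.21. Calls were lost in some settings for FARSB, VARS1, AARS2 and SARS2 and gained for EARS2, MARS2 and KARS1. The cause was not tested.

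The labels give both groups the replicate numbers 1 to 3, and deviations from the group means of same-numbered libraries correlated at 0.0276, -0.0753 and 0.0458, so the numbers were not read as pairs; not every library correlated best with its own number (NC replicate 1 with siGDF15 replicate 2, 0.0891). With the replicate number as a block, 7 genes were higher and 19 lower, the medians were -0.44 and -0.04, and GDF15 was at -0.91; FARSB lost its call (adjusted p = 0.056, edgeR) and MARS2 gained one (0.038). MARS2 and VARS2 had larger SEs (0.13 and 0.35) than genes with changes of like size that were called, such as LARS2 (0.065).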
